A study of Mus musculus with 9 samples.

Results

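Heat shock proteins and chaperones were examined in Thy1-YFP cells sorted from the mouse amygdala. The members were all listed genes whose mouse symbol belongs to the heat shock protein families Hspa, Hspb, Hspd, Hspe, Hsph and Hsp90 (with their binding proteins), the heat shock factors Hsf, the J-domain families Dnaja, Dnajb and Dnajc, the chaperonin subunits Cct followed by a number, or the co-chaperones Bag followed by a number. They were 77 genes of the 12275 listed in either table. The table of BA and AV mice held 70 of them among 9872 genes, that of BA and AP mice held 76 among 11820, and 69 stood in both. In the mouse annotation 109 genes carry such symbols, 93 of them protein coding. Of these, 17 were in neither table and were not analysed here, among them Hsf3, Hsf4, Hspb2, Hspb8 and Hspa1l, and none of the 15 processed pseudogenes with such symbols was listed.

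All mice were B6.Cg-Tg(Thy1-YFP)HJrs/J transgenics, and the methods describe no drug treatment. In these transgenics the Thy1 promoter drives yellow fluorescent protein (YFP) in pyramidal neurons of the cortex, amygdala and hippocampus and in some other neurons. The groups were 3 balancing (BA), 3 avoiding (AV) and 3 approaching (AP) mice, chosen by their spontaneous choices in a Y-maze conflict task and killed about a month later. For that task all mice had limited access to food, after meeting a palatable food in their home cages. Each library came from the sorted YFP-positive cells of 1 mouse, and mice of a group were not siblings. Age and sex are not given in the sources used here. The study's methods exclude an AV mouse after a principal component analysis without giving its number, and of the AV group replicates 1 and 3 were analysed here, so that AV values come from 2 mice. The question was how AV and AP mice differ from BA mice in their chaperone genes, each group within its own table.

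Chaperones bind unfolded or newly made proteins and help them fold, assemble or be degraded. HSP70 proteins hold clients in cycles of ATP use that J-domain proteins (DNAJ) start and nucleotide exchange factors (HSP110 and BAG proteins) end, HSP90 takes over late folding steps, the CCT ring folds actin and tubulin, and other members serve the endoplasmic reticulum (ER) and the mitochondria. Some members are constitutive and run protein folding in every cell, while others are inducible. These are switched on by heat shock factor 1 (HSF1) when unfolded proteins accumulate, through heat shock elements built of inverted repeats of the unit nGAAn. Several types of neurons are known for a weak heat shock response and for specialised J proteins at the synapse.

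Promoters are shown for the members on which the comparisons below turn and for Hspa5 as an ER chaperone under another control. Each is the 250 bases before the start site in RefSeq on GRCm38.p6, written 5′ to 3′ on the strand of its gene. Capitals mark a match on either strand to a heat shock pair, GAANNTTC or TTCNNGAA (units facing each other or back to back), to a triplet, which is GAANNTTC followed after 2 bases by GAA, or, in Hspa5, to the ER stress element, which is CCAAT followed after 9 bases by CCACG.
Hspb1, chr5:135887669-135887918, plus strand: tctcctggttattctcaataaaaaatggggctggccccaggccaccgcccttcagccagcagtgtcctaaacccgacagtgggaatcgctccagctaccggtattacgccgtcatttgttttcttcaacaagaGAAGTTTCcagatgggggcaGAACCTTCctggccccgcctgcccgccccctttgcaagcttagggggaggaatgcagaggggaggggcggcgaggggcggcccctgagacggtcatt
Hspa1a, chr17:34972157-34972406, minus strand: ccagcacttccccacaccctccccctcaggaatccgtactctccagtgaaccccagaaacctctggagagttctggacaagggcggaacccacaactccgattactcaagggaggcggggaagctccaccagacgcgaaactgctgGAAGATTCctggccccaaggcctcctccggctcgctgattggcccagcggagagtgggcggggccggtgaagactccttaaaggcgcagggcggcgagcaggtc
Hspa1b, chr17:34959239-34959488, minus strand: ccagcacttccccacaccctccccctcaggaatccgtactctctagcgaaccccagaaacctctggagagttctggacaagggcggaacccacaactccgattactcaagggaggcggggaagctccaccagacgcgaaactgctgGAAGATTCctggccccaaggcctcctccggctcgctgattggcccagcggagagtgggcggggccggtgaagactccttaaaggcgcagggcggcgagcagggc
Dnajb1, chr8:83607925-83608174, plus strand: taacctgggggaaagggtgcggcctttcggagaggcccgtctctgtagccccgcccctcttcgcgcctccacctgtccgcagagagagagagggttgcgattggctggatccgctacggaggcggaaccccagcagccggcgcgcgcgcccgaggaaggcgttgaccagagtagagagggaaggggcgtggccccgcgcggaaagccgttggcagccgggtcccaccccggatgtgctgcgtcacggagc
Hspe1, chr1:55087898-55088147, plus strand: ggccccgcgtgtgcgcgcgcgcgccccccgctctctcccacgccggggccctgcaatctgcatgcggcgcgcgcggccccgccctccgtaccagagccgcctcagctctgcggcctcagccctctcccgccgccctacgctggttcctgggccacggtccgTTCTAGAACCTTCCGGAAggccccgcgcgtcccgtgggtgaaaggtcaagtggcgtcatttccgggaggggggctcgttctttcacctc
Dnajc27, chr12:4082324-4082573, plus strand: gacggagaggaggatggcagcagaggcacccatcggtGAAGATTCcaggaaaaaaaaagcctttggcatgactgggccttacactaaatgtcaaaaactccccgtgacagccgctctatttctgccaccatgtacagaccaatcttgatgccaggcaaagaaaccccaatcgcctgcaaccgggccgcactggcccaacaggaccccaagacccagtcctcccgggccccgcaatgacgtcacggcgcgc
Hspa5, chr2:34771840-34772089, plus strand: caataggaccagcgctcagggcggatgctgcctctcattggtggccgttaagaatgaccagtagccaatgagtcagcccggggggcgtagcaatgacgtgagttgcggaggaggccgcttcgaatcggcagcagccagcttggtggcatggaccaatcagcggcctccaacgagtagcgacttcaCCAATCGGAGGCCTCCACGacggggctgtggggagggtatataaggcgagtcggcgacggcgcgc

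RefSeq promoters were found for 63 of the 77 members. GAANNTTC was found in 11 of these 63 genes, against 7.73% of all genes with a promoter, and the triplet, which contains it, in Dnajb6, Hspd1 and Hspe1, against 0.514% of all genes. TTCNNGAA, whose matches can overlap those of the other motifs, was found in 8 of 63, against 8.11% of all genes. Of 9 inducible genes with a promoter, Dnajb4 and Hsph1 held TTCNNGAA, and of 8 constitutive ones Cct5 did. Of the same genes, the inducible Dnaja1, Hspa1a, Hspa1b and Hspb1 and the constitutive Cct2 held GAANNTTC. Hspb1 carried 2 such matches, 117 and 97 bases before its start. Hspd1 and Hspe1, which encode the mitochondrial HSP60 and its lid HSP10, are read in opposite directions from the same stretch and share their matches. The Hspa1a and Hspa1b windows were identical at 247 of 250 positions, and each held a single match 104 bases before the start. The window of Dnajb1 shown above held none. The ER stress element stood in Hspa5, Hsp90b1 and Dnajc3, 3 of 11 ER chaperone genes with a promoter, against 0.13% of all genes. A match is a description of these letters and not a shown site.

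Values are normalized signal without a unit, in which libraries were scaled to each other. In the BA vs AP table most low values lie on steps of 1 read above an offset of 2, the lowest value of every mouse, which puts 3816226 to 6720729 reads in each mouse behind the listed genes, and 3 reads correspond to a value between 4.13 and 5.68. The BA vs AV table has no such steps, and its depth is unknown. The labelled cell type was checked against marker genes before the results. Of 9 neuronal markers Map2 and Tubb3 were listed, and of 8 glutamatergic markers Grin2b and Nrgn, whereas all 9 oligodendrocyte markers were listed. The listed markers go against a pure pyramidal neuron label, but genes that are not listed were not analysed here, so their levels in these cells are unknown. Some of the listed marker sets differed between the groups. The summed signal of the oligodendrocyte markers was 60714 to 91829 in BA and 34729 to 44059 in AV mice, that of 8 of 9 astrocyte markers 10231 to 15734 in BA and 31244 to 60591 in AV mice, and that of the 2 listed neuronal markers 904 to 1222 in BA and 4917 to 6427 in AV mice. In the BA vs AP table the 11 microglial markers summed to 1583 to 3202 in BA and 4333 to 7807 in AP mice. The oligodendrocyte markers overlapped, at 71351 to 112201 in BA and 84292 to 107922 in AP mice. The astrocyte markers overlapped too, at 12893 to 17764 in BA and 10189 to 53637 in AP mice. Grin2b and Nrgn together spread from 125 to 1843 in AP mice around 170 to 196 in BA mice. A difference in a bulk library cannot tell a change in the number of cells of a type from one in RNA per cell, and the part of these cell types in the results below was not tested.

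In BA mice the cytosolic chaperones led, and levels between genes are compared here only per kilobase of exon, in the BA vs AP table. The constitutive HSP90 gene Hsp90ab1 stood at 1447, 1992 and 1313 signal per kilobase in the 3 mice, the inducible Hsp90aa1 at 1197, 1830 and 1465, and the constitutive HSP70 gene Hspa8 at 1386, 1596 and 1144. The ranges of these 3 genes overlap, so their order is not resolved. Below them came the ER members Hsp90b1 (GRP94) at 458, 727 and 588 and Hspa5 (BiP) at 410.2, 394 and 372, the lowest Hsp90b1 mouse still above the highest Hspa5 mouse. Dnajc6, the neuronal auxilin that strips clathrin from vesicles together with HSC70, stood at 177, 224 and 225. The classic inducible genes were lower, with Dnajb1 at 152, 78.4 and 81.4, Hspa1b at 43.7, 135 and 130.4, and Hspa1a at 66.4, 72.5 and 109.99 signal per kilobase, ranges that overlap each other. Near the bottom stood Hspb1, at 4.01, 11.9 and 4.32, and Bag2, at 3.09, 2.33 and 3.06. The offset of 2 was not removed, so part of these low levels is offset. The signal of Hspb1 before scaling by length was 4.13 and 4.45 in BA replicates 1 and 3. The median member lay at the 70.3rd percentile of all listed genes, and 53 of 76 lay above the middle.

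**Figure D1:**
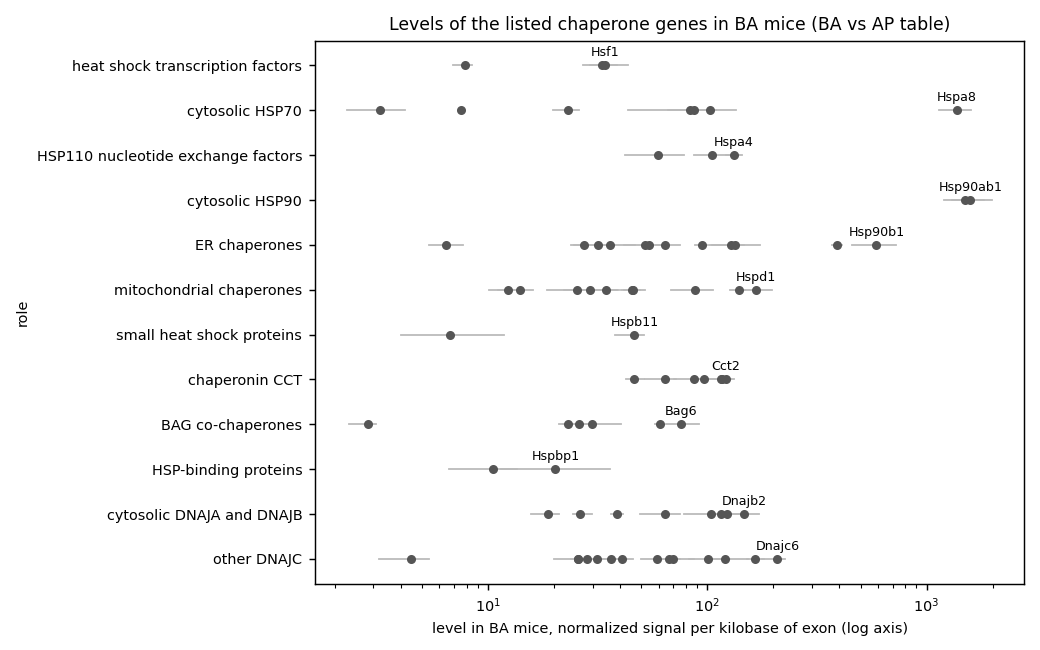
Level of each of the 76 listed members in BA mice by role, in normalized signal per kilobase of exon on a log axis. Points are means of 3 mice, grey lines run from the lowest to the highest mouse, and the highest member of each role is named, from Hspbp1 near 20.3 to Hsp90ab1 at 1584.

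In the comparison of AV with BA mice, 12 of 70 members passed the test at an adjusted p under 0.05, which is 17.1% of them against 29.7% of all listed genes. Higher in AV mice were 7 members (13.6% of all genes were higher), the small heat shock protein gene Hspb1, the J-protein genes Dnajc27, Dnajc5 and Dnajc15, the BAG genes Bag1 and Bag2, and Hspe1. Lower were 5 (16.2% of all genes were lower), the heat shock factor gene Hsf1 with Dnajc24, Dnajb2, Dnajc17 and Hspb11. The median log2 fold change was 0.10 over the members and -0.03 over all genes, with 39 members above 0, where 48.5% of all genes were. Groups did not overlap in 29 of 70 members, against 58.9% of all genes, with 18 higher (27.7% of all genes) and 11 lower (31.3%). Neither of the cytosolic HSP90 genes nor any CCT, ER, HSP110 or cytosolic HSP70 gene was among the 12. The p-values are limma's moderated test with Benjamini-Hochberg adjustment over all 9872 genes.

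**Figure D2:**
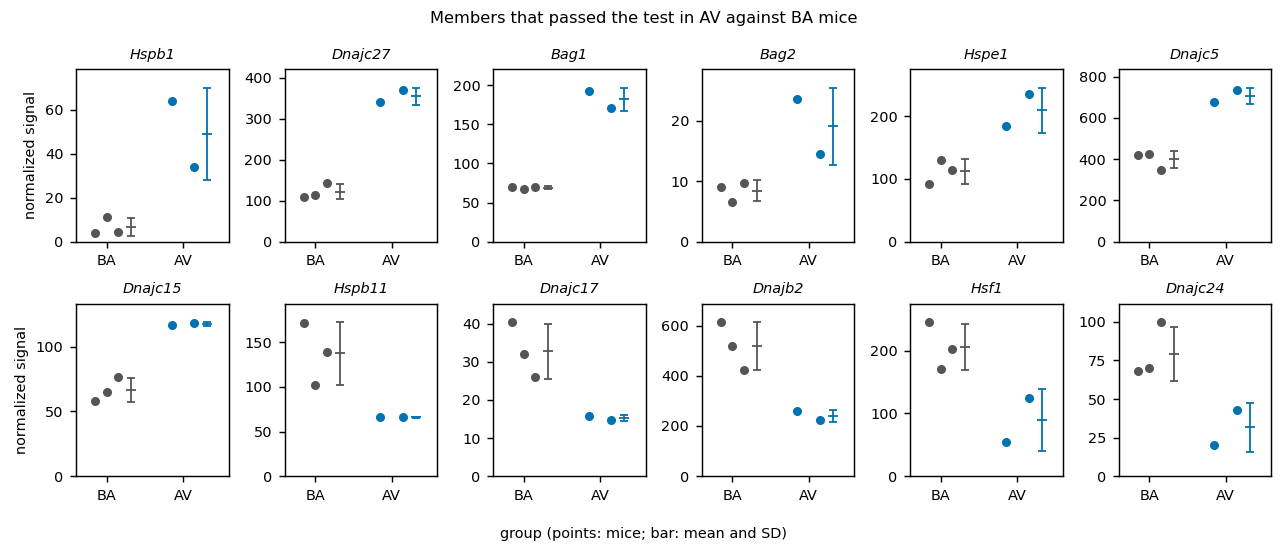
Normalized signal of the 12 members that passed the test in AV against BA mice, ordered by log2 fold change. Points are single mice (3 BA and 2 AV, by replicate number from left to right), with the mean and SD beside them, and in each panel the AV mice lie outside the range of the BA mice.

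Hspb1 (chr5:135887919-135889563, plus strand), which encodes HSP25, a small heat shock protein that holds unfolded clients without ATP, showed the largest rise. Its signal was 4.01, 11.1 and 4.18 in BA and 63.9 and 34.1 in AV mice. Both AV mice lay above every BA mouse, and 2 BA mice were at or under the level of 3 reads, taken from the other table. The log2 fold change was 2.81 (SE 0.46, adjusted p = 0.00682), and between 2.37 and 3.25 with each mouse left out in turn. With BA values this close to the level of 3 reads, the gene reaches a mean of 20 through the AV mice alone, and the size of the fold is uncertain. Of the 75-base stretches of its transcripts, 46.4% also occur in the pseudogene Hsp25-ps1, which was not listed, so the split of reads between both is uncertain. Cryab, the related crystallin gene outside the symbol rule that was named here after its values were seen, went the other way. Its signal was 1801, 2148 and 1750 in BA and 850.3 and 1027 in AV mice, which gave a log2 fold change of -1.02 (SE 0.23, adjusted p = 0.0180). The other small heat shock genes split as well. Hspb11, whose product IFT25 is a subunit of intraflagellar transport, fell from 171, 102 and 139 to 65.8 and 66.5. That is a log2 fold change of -1.01 (SE 0.27, adjusted p = 0.0333), and 2 of the 5 fits that leave out a mouse lost the call. The BA mean of Hspb11 was 1.43 times as high in this table as in the other one. The median ratio of all genes was 0.850, so its values differ with the table. Olfr731, which holds 2.4% of the 75-base stretches of Hspb11, had BA means of 103 in this table and 66.9 in the other. Its log2 fold change in AV mice was -0.72, and whether the genes exchange reads was not tested. Hspb6 (HSP20) overlapped between groups, at 14.1, 19.4 and 9.60 in BA and 28.0 and 12.2 in AV mice.

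Hsf1 (chr15:76477422-76501913, plus strand), the factor that drives inducible chaperone genes, fell. Its signal was 245, 172 and 203 in BA and 55.1 and 125 in AV mice, so the groups were apart, but the AV mice also lay apart from each other. The log2 fold change was -1.29 (SE 0.37, adjusted p = 0.0409), and only the fit without AV replicate 3 kept the call, at -1.87. Without AV replicate 1 it was -0.71, and without each of the BA mice between -1.41 and -1.16. Hsf5, a factor mainly known from testis, overlapped, with 25.3, 26.0 and 32.01 in BA and 63.8 and 16.1 in AV mice. Hspa14, an HSP70 relative at the ribosome that was named here after its values were seen, had the lowest log2 fold change of all members, -1.69 (SE 0.52), and just missed the threshold at an adjusted p of 0.0507. Its signal was 80.1, 68.4 and 91.6 in BA and 11.9 and 47.5 in AV mice, and the gene shares 321 exon bases with Gm45902 on the same strand.

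Among the BAG genes, whose products release nucleotide from HSP70 and steer its clients, Bag1 (chr4:40936398-40948294, minus strand) gave the tightest difference. Its signal was 69.5, 66.9 and 70.1 in BA and 193 and 172 in AV mice, which gave a log2 fold change of 1.39 (SE 0.21, adjusted p = 0.00532). Bag2, whose product restrains the ubiquitin ligase CHIP, rose from 9.00, 6.504 and 9.78 to 23.6 and 14.6, with a log2 fold change of 1.07 (SE 0.29, adjusted p = 0.0344). Bag1 kept its call in all 5 fits without a mouse and Bag2 in 1 of 5. Bag4 was higher in both AV mice than in any BA mouse, at a log2 fold change of 0.51, and did not pass the test. Bag6, Bag5 and the inducible Bag3 overlapped between the groups, with log2 fold changes of 0.43, 0.10 and -0.08.

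The J-domain genes moved in both directions. Dnajc27 (chr12:4082583-4110606, plus strand), which joins a J domain to a small GTPase, stood at 109, 113 and 143 in BA and 339.7 and 369 in AV mice. Its log2 fold change of 1.54 (SE 0.23, adjusted p = 0.00521) stayed between 1.47 and 1.66 without each mouse and was called in all 5 of those fits. Dnajc5, the cysteine string protein of synaptic vesicles, rose from 419.8, 426 and 349 to 677 and 735, a log2 fold change of 0.83 (SE 0.22, adjusted p = 0.0310). Dnajc15, a J protein of the inner mitochondrial membrane, rose from 58.0, 65.2 and 76.4 to 117 and 118, a log2 fold change of 0.82 (SE 0.23, adjusted p = 0.0342). Dnajc5 kept its call in 1 of 5 fits without a mouse, at log2 fold changes of 0.74 to 0.89, and Dnajc15 in 0 of 5, at 0.73 to 0.92.

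Lower in AV mice was Dnajb2, a neuronal J protein that passes ubiquitin-tagged clients to the proteasome. Its signal was 612, 517 and 422 in BA and 258 and 223 in AV mice, which gave a log2 fold change of -1.09 (SE 0.25, adjusted p = 0.0191), with the call kept in 3 of 5 fits. Dnajc24, which helps make the diphthamide residue of a translation factor, fell from 67.9, 70.2 and 99.6 to 20.2 and 42.9, and Dnajc17, a nuclear J protein tied to splicing, from 40.3, 32.2 and 25.9 to 15.7 and 14.6. The log2 fold changes were -1.37 (SE 0.36, adjusted p = 0.0301) and -1.04 (SE 0.26, adjusted p = 0.0239). The call of Dnajc24 was kept in 1 and that of Dnajc17 in 3 of the 5 fits without a mouse, and without AV replicate 1 the log2 fold change of Dnajc24 was -0.85. Dnajc17 shares 108 exon bases with Zfyve19 and Dnajc24 84 with Dcdc5, each on the opposite strand. The libraries were stranded, but whether the counting used strand is not stated. Of the 13 listed genes grouped as other DNAJC, 10 lay below 0 and 3 above it, where 48.5% of all genes were above 0. Their median was -0.27. Auxilin, Dnajc6, the highest of these 13 genes in BA mice, overlapped between groups, at a log2 fold change of -0.04.

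In the mitochondrial group, Hspe1 (HSP10) rose from 91.1, 130.1 and 114 to 184 and 235 (log2 fold change 0.90, SE 0.26, adjusted p = 0.0377). The call was lost under median centring (adjusted p = 0.0536) and under quantile normalization (adjusted p = 0.0511), and kept in 1 of 5 fits without a mouse. Its partner Hspd1 (HSP60) was higher in both AV mice, at 429 and 478 against 311, 420.1 and 379, with a log2 fold change of 0.30 that did not pass the test, and so was Hspa9 (mortalin), at a log2 fold change of 0.28. Of 9 listed mitochondrial members 6 lay above 0 (median 0.28), where 48.5% of all genes were, and 2 passed, against 29.7% of all genes.

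The ER and CCT groups lay on different sides of 0 without a call. Of 12 ER chaperones 9 lay below 0 and 3 above it, where 48.5% of all genes were above 0. Their median log2 fold change was -0.25, and 0 of 12 were called, against 29.7% of all genes. BiP, Hspa5, read 1489, 1408 and 1320 in BA and 1524 and 1465 in AV mice, and Hsp90b1 1601, 2438 and 2024 in BA and 2075 and 1902 in AV mice, so both overlapped. Of 7 CCT subunit genes 5 lay above 0, with a median of 0.39 and 0 of 7 called by limma. Only Cct3 and Cct6a were below 0, at -0.35 and -0.03. Cct8, at 178, 258 and 249.998 in BA and 433 and 290.2 in AV mice, had the highest log2 fold change of the ring, 0.65 (adjusted p = 0.132), followed by Cct5 at 0.49 (adjusted p = 0.124). Cct2, Cct4 and Cct7 lay at 0.36, 0.40 and 0.39. At an unadjusted p under 0.05 stood 0 of 7 CCT and 1 of 12 ER genes, against 43.2% of all genes.

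The abundant HSP70 and HSP90 genes did not pass the test. Hspa8 read 5040, 5509 and 4143 in BA and 5329 and 5767 in AV mice, Hsp90ab1 3654, 4805 and 3372 against 4400 and 4744, and Hsp90aa1 4106, 5882 and 4876 against 4147 and 3796. Their log2 fold changes were 0.19, 0.23 and -0.30, with adjusted p of 0.565, 0.505 and 0.372. Under quantile normalization Hspa8 and Hsp90ab1 passed the test, at 0.70 (adjusted p = 0.0485) and 0.73 (adjusted p = 0.0425), and Hsp90aa1 turned to 0.19. Scaling thus set the call of Hspa8 and Hsp90ab1, whose direction it left, and the direction of Hsp90aa1, which was called under neither. The 3 HSP110 genes, whose products exchange the nucleotide of HSP70, lay at 0.33 for Hspa4, 0.24 for Hsph1 and 0.12 for Hspa4l, without a call. The remaining J proteins of the cytosol that the inducible and constitutive lists name, Dnaja1, Dnaja2 and Dnajb4, overlapped between the groups at 0.03, 0.22 and 0.22.

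**Figure D3:**
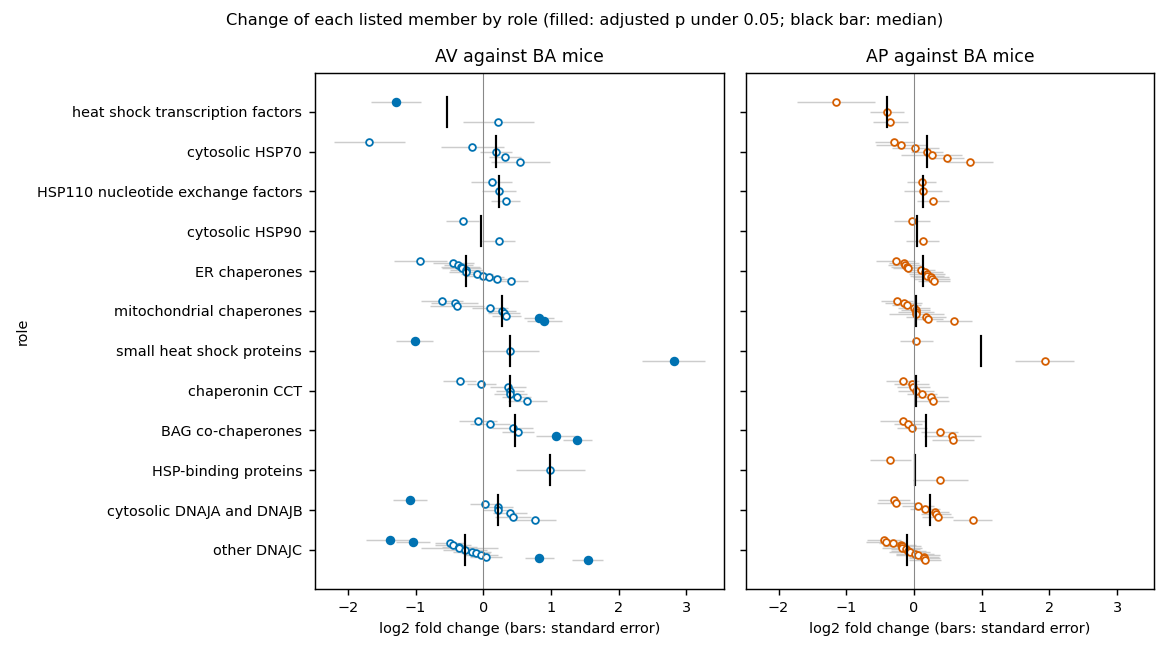
Log2 fold change of each listed member against BA mice, by role, for AV mice (left, 70 members) and AP mice (right, 76 members). Points are genes with their standard error, filled where the adjusted p is under 0.05, and black bars are medians. In AV mice 12 genes are filled and in AP mice 0. The tables were normalized separately, so these counts do not compare AV with AP mice.

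In the comparison of AP with BA mice, 0 of 76 members passed limma's test at an adjusted p under 0.05. Of all 11820 genes 1 did (0.00846%). At an unadjusted p under 0.05 stood 3 members, Hspb1, Dnajb1 and Hspa1a, against 7.77% of all genes, and all 3 were higher in AP mice (4.99% of all genes were higher and 2.77% lower). The groups did not overlap in 7 of 76 members, against 12.1% of all genes. Of these, 5 were higher in AP mice, Hspb1, Dnajb1, Dnajb4, Hspe1 and Bag2, and 2 were lower, Hsf5 and Dnajc7, where 5.64% of all genes were higher and 6.45% lower. Hspe1 and Dnajc7 are named here after their values were seen. Dnajc7 shares 287 exon bases with Nkiras2 and 154 with the oligodendrocyte gene Cnp, which had a mean of 11221 in BA mice. Both lie on the opposite strand. The libraries were stranded, but whether the counting used strand is not stated. The BA mean of Dnajc7 in the BA vs AV table was 0.617 times that in this one, against the median ratio of 0.850 over all genes, and its identifier has another version there, as have those of 241 of the 9417 genes in both tables. The median log2 fold change was 0.03 over the members and -0.03 over all genes. The BA mice are the same animals as in the comparison with AV mice, so a shift of those mice appears in both.

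Hspb1 again had the highest log2 fold change of the members. Its signal was 4.13, 12.2 and 4.45 in BA and 15.6, 36.0 and 32.3 in AP mice, with 2 BA mice under the level of 3 reads. The log2 fold change was 1.93 (SE 0.44, unadjusted p = 0.00207, adjusted p = 0.344). Dnajb1, the J protein that serves inducible HSP70 and that the BA vs AV table did not list, read 486, 251 and 261 in BA and 595, 557 and 581 in AP mice. The AP mice lay close together, and BA replicate 1 stood apart from the other BA mice. The log2 fold change was 0.86 (SE 0.29, unadjusted p = 0.0168, adjusted p = 0.508).

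The inducible HSP70 genes Hspa1a (chr17:34969190-34972156, minus strand) and Hspa1b (chr17:34956436-34959238, minus strand) encode nearly the same protein. Hspa1a stood at 197, 215 and 326 in BA and 478, 595 and 274 in AP mice, which gave a log2 fold change of 0.83 (SE 0.34, unadjusted p = 0.0392, adjusted p = 0.616), and the groups overlapped. Hspa1b read 122, 379 and 365 in BA and 312, 406 and 231 in AP mice, which gave a log2 fold change of 0.26 (SE 0.45). Of Hspa1a, 52.7% of the 75-base stretches occur in Hspa1b too, so reads can be split between them in either way. Their sum, 319, 594 and 692 in BA and 789.7, 1001 and 505 in AP mice, gave a log2 difference of 0.53, with overlapping groups. In AV mice Hspa1a alone was listed, at 107 and 311 against 176, 178 and 274 in BA mice.

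**Figure D4:**
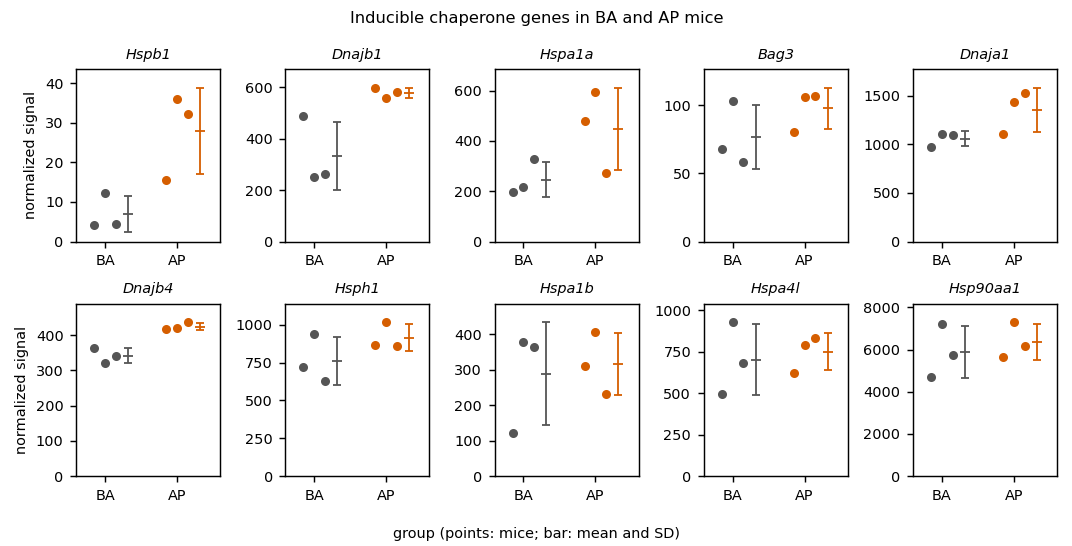
Normalized signal of the 10 inducible chaperone genes in BA and AP mice, ordered by log2 fold change. Points are single mice (3 a group, by replicate number from left to right), with the mean and SD beside them. Groups are apart for Hspb1, Dnajb1 and Dnajb4 and overlap for the other 7 genes.

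The other inducible genes were close to the BA range. Dnajb4 read 363, 319.7 and 340.3 in BA and 416, 419 and 436 in AP mice, which gave a log2 fold change of 0.31 (adjusted p = 0.717). Bag3, which guides clients to autophagy, Dnaja1, the main J partner of HSC70, and the HSP110 gene Hsph1 had log2 fold changes of 0.38, 0.35 and 0.28, with overlapping groups. Hspa4l and Hsp90aa1 lay at 0.13 and 0.13. So all 10 inducible genes were above 0 in AP mice, with a median of 0.33 and 3 of 10 at an unadjusted p under 0.05, where 46.5% of all genes were above 0 and 7.77% had such a p. Of the 11 constitutive genes 7 were above 0, with a median of 0.12 and 0 of 11 at an unadjusted p under 0.05. Both lists were chosen with results of these data known, so these counts describe them and test nothing. Hspa1a and Hspa1b share sequence, so the 10 inducible genes are not independent readings. Hspa8 read 5962, 6863 and 4921 in BA and 6032, 8130 and 6174 in AP mice, which gave a log2 fold change of 0.20, and Hsp90ab1 lay at -0.03, Hspa4 at 0.12 and Dnaja2 at 0.16. The CCT genes spread from -0.17 for Cct3 to 0.28 for Cct5, around a median of 0.03.

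Outside these lists, the heat shock factors lay below 0 in AP mice without passing the test. Hsf1 read 274, 208 and 245 in BA and 236, 149 and 175 in AP mice, which gave a log2 fold change of -0.39 (SE 0.25, adjusted p = 0.717), and Hsf2, which was listed in this table only, 260.1, 274 and 416 in BA and 297, 222 and 218 in AP mice, which gave a log2 fold change of -0.35 (SE 0.27). Hsf5 lay below the BA range of 28.6 to 35.1 in every AP mouse, at 28.2, 21.8 and 4.16, the last under the level of 3 reads. Among the BAG genes Bag1 spread from 58.9 to 209 in AP mice around the BA range of 78.0 to 85.0, and Bag2 stood at 9.96, 21.8 and 10.7 against 9.46, 7.12 and 9.36 in BA mice. Bag4, Bag5 and Bag6 lay at -0.09, -0.17 and -0.03. Hspe1, whose promoter printed above holds a triplet, read 101, 156 and 133 in BA and 162, 183 and 246 in AP mice, which gave a log2 fold change of 0.60 (SE 0.26, adjusted p = 0.653). The 12 ER chaperones had a median of 0.13, with 7 above 0, where 46.5% of all genes were. Hspa5 stood at 1735, 1667 and 1574 in BA and 1703, 1878 and 2632 in AP mice.

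To set inducible against constitutive chaperones, the mean log2(signal + 1) of the constitutive genes was subtracted from that of the inducible genes in each mouse. In the BA vs AP table, with 10 inducible and 11 constitutive genes, the difference was -1.07, -0.82 and -0.86 in BA and -0.47, -0.49 and -0.39 in AP mice. The AP mice were above every BA mouse by this measure, and the group means differed by 0.46, against a pooled SD of 0.10 between mice. In the BA vs AV table, with 8 and 11 genes, it was -0.98, -0.70 and -0.86 in BA and -0.80 and -0.70 in AV mice, which overlap, and the means differed by 0.10 (pooled SD 0.12). No test was run on these scores, since the lists were chosen with results of these data known. Leaving out Hspb1, an alternative chosen after seeing the data, lowered the difference in AP mice to 0.31, with the values of AP mice between -0.07 and 0.04 and those of BA mice between -0.43 and -0.21. In AV mice it turned the difference to -0.25, at -0.44 and -0.22 in AV against -0.17, -0.02 and -0.04 in BA mice. The sign in AV mice therefore rested on Hspb1.

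**Figure D5:**
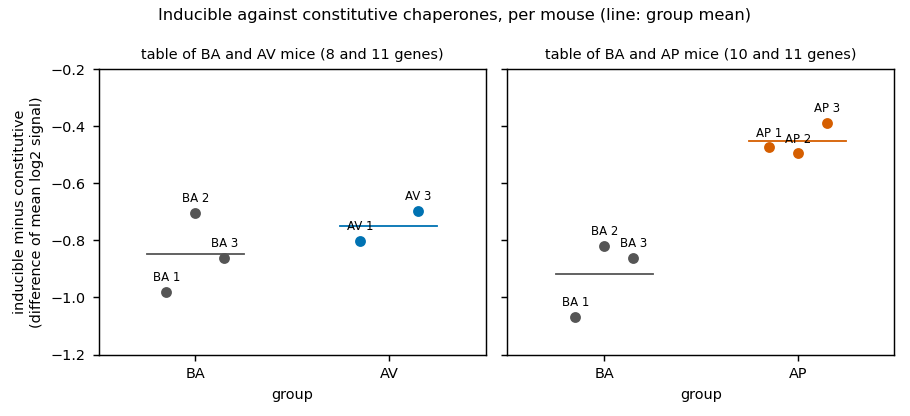
Mean log2 signal of the inducible minus that of the constitutive chaperone genes in each mouse, for the table of BA and AV mice (left) and of BA and AP mice (right). Points are mice and lines group means. AP mice lie between -0.49 and -0.39, above BA mice at -1.07 to -0.82, while AV and BA mice overlap.

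Other values also differed between the groups. In AP mice all 11 microglial markers were higher without overlap and had an unadjusted p under 0.05, with none passing limma's adjusted test, and their sums are given above. All 11 listed immediate early genes, which respond fast to stimulation and also to dissociation of tissue, lay above 0, with 4 at an unadjusted p under 0.05 and a sum of 8465 to 20569 in BA and 14631 to 26772 in AP mice. In AV mice 6 of 9 oligodendrocyte markers passed as lower and 1, Pdgfra, as higher, 4 of 8 listed astrocyte markers passed as higher, and Map2, Grin2b and Nrgn passed as higher. So did all 3 listed of the 11 microglial markers, C1qa, Cx3cr1 and Tmem119, which summed to 237 to 354 in BA and 722 to 939 in AV mice. Of the immediate early genes 1 was listed in that table. Their part in the chaperone differences was not tested.

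Genes that work with the members but carry other symbols were taken from a list of 56 co-chaperones, prefoldin subunits, ER folding enzymes, mitochondrial folding factors and crystallins. In AV mice 3 of 44 listed genes passed as higher and 4 as lower, against the 29.7% of all genes called in either direction. The highest were 2 prefoldin subunits, which hand new actin and tubulin to the CCT ring. Pfdn5 rose from 111, 123 and 92.9 to 341 and 473, a log2 fold change of 1.88 (SE 0.26, adjusted p = 0.00421), and Pfdn2 from 53.5, 61.5 and 71.5 to 197 and 185, a log2 fold change of 1.61 (SE 0.23, adjusted p = 0.00470). Cdc37l1, a relative of the HSP90 co-chaperone CDC37, fell from 4362, 4658 and 4031 to 1638 and 1400, a log2 fold change of -1.52 (SE 0.22, adjusted p = 0.00483). Timm44, which ties mitochondrial HSP70 to the import channel, fell from 135, 102 and 82.8 to 36.0 and 62.2 (log2 fold change -1.12, SE 0.33, adjusted p = 0.0415). Of the other listed prefoldin genes, named here after their values were seen, Vbp1 was lower in both AV mice without passing (log2 fold change -0.87, adjusted p = 0.0675), and Pfdn4 and Pfdn6 overlapped between groups, at 1.01 and 0.14. The other 3 genes that passed were Hsbp1, a binding partner of HSF1, which was higher, and Ahsa2, an HSP90 activator, and Cryab, which were lower. Tcp1, the CCT subunit that the symbol rule leaves out, lay at 0.40 and did not pass. In AP mice 0 of 53 listed genes passed, against 0.00846% of all genes. Of the 53, 30 lay above 0, where 46.5% of all genes were. An unadjusted p under 0.05 was found for 2 of them, against 7.77% of all genes.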

How the data were processed

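RNA of sorted YFP-positive amygdala cells was sequenced by the authors in stranded paired-end libraries from 9 mice. The deposited values are a normalized signal per gene and mouse in 2 tables, which the authors made by filtering genes of low count, TMM normalization and batch correction with ARSyN, and the methods do not say if the correction went into both tables. The submitters' processing notes name bcl2fastq 2.20, Salmon 1.2 and GRCm38.p6. The tables were normalized separately, so each group was tested within its own table. Low values lay on read steps in the BA vs AP table only, so the tables may differ in correction. The fits do not allow for a correction or for the excluded AV mouse, so p-values can be too small where these applied. Counts of calls or of groups that do not overlap are therefore not comparable between the tables. Members and lists were chosen with earlier results of these data known.

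Symbols and coordinates came from GENCODE M21 (GRCm38), and 1 identifier of the BA vs AV and 42 of the BA vs AP table had no symbol. On log2(signal + 1), all listed genes of a table were fitted together (limma 3.58.1, R 4.3.3), two-sided, with Benjamini-Hochberg adjustment and a threshold of 0.05, and a fold change on this scale understates that of low genes. Low values lay on whole-read steps within a tolerance of 0.02 step for 79.8% to 87.1% of values in the BA vs AP table, which was too few for a count test, and the 3-read level covers counting error only. Whether the replicate numbers pair the mice is not known, and the main fits did not pair them. Correlations of same-numbered deviations from the group mean ranged from -0.060 to 0.121. In the BA vs AP table they were 0.020 to 0.121, against -0.117 to 0.014 for other numbers. With 2 AV mice the deviations mirror each other, and a batch correction can remove a shared batch. These correlations therefore cannot decide it.

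Named were the inducible and constitutive genes, the HSF, HSP110, small heat shock and BAG families, the highest member of each role in BA mice, and up to 6 members in each direction that passed (AV) or had an unadjusted p under 0.05 (AP) where a group's mean reached 20, and, among partner genes, the 2 that rose most and the 2 that fell most of those called. Sharing between genes was counted over 75-base stretches of GENCODE transcripts. Of the 77 members, 48 shared none and 9 shared over 10%. Scripts were tested on simulated data. Python 3.11.15, numpy 2.4.6, pandas 2.3.3 and matplotlib 3.10.9 were used. No column of the tables was left out. A marker gene is not reported here and is left out of its list. Protein sequences and 14 promoters were not analysed here.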

Additional observations from a re-analysis of the deposited data

How the results depend on the processing

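The count of 12 members called in AV mice fell to 3 at an adjusted p under 0.01 and to 2, Hspb1 and Dnajc27, with the replicate number as a block, a fit that drops BA replicate 2 because AV mice carry numbers 1 and 3 only. It ranged from 4 to 16 when each mouse was left out, with 4 without BA replicate 1, 4 without BA replicate 2, 5 without BA replicate 3, 9 without AV replicate 1 and 16 without AV replicate 3. With 1 AV mouse left, that mouse is assumed to vary like the BA mice. All other alternatives (pseudocounts of 0.5 and 5, a mean of at least 20, median centring, quantile normalization, genes of both tables, a robust variance prior) gave 11 to 14. The mean of at least 20 left Bag2 out. Bag2 (adjusted p = 0.116) and Dnajc17 (adjusted p = 0.0866) lost their calls under the robust prior. In AP mice the count stayed at 0 under every alternative run, the replicate block and the removal of the offset of 2, which was added after seeing the data, included. The inducible minus constitutive difference ranged from 0.03 to 0.17 in AV and from 0.39 to 0.51 in AP mice over the mice left out, and leaving out Hspb1, also added later, moved it to -0.25 and 0.31. The replicate block gave 0.17 in AV mice and changed nothing in AP mice. Whether the numbers pair mice is not known, so the fits with and without the block cannot be ranked on that ground.

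Some uncalled members changed sign. In AV mice these were Dnaja1 under median centring (-0.049), Dnajc6, Hsp90aa1 and Hsp90b1 under quantile normalization (0.17, 0.19 and 0.41), and Bag3, Bag5, Cct6a and Hsp90b1 under the replicate block (0.12, -0.061, 0.0043 and 0.14). In AP mice they were Hsp90ab1 (0.041) and Hspb11 (-0.0028) under quantile normalization. Without single mice, log2 fold changes that crossed 0 ranged in AV mice from -0.28 to 0.12 (Bag3), -0.24 to 0.44 (Bag5), -0.17 to 0.11 (Cct6a), -0.13 to 0.18 (Dnaja1), -0.28 to 0.21 (Dnajc6), -0.74 to 1.18 (Hsf5), -0.16 to 0.14 (Hsp90b1), -0.93 to 0.60 (Hspa1a), -0.11 to 0.33 (Hspa4l) and -0.16 to 0.97 (Hspb6). In AP mice they ranged from -0.46 to 0.18 (Bag5), -0.14 to 0.11 (Bag6), -0.19 to 0.19 (Cct2), -0.16 to 0.15 (Cct6a), -0.23 to 0.15 (Cct7), -0.024 to 0.28 (Hsp90aa1), -0.21 to 0.14 (Hsp90ab1), -0.27 to 0.54 (Hspa1b), -0.10 to 0.35 (Hspa4l), -0.10 to 0.20 (Hspb11) and -0.068 to 0.42 (Hspd1). The cause was not tested. The unknown depth of the BA vs AV table and 2 AV mice limit every value there.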
